A study of Homo sapiens with 5 samples.

Results

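The comparison described here is that of late-passage with early-passage WI-38 cells, a line of human diploid fibroblasts grown from lung. The late-passage culture was taken at population doubling level (PDL) 55 and the early-passage culture at PDL 15, each untransfected and each sequenced as 1 library of total RNA. A further PDL 15 culture that had received a control siRNA, also 1 library, served as a second reference to check direction. The 3 libraries are taken from a series of 5 WI-38 libraries, and all 3 came from cells kept in the same serum-containing medium. PDL counts how often a culture has doubled since it was set up, and the labels name no other measure of the state of the cells. Each group is 1 library and the variation among cultures of a group was not measured, so every difference below is a difference between libraries and carries no p-value.

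Diploid fibroblasts divide for a limited number of doublings and then leave the cell cycle for good, a state called replicative senescence. In the textbook account, shortened telomeres act through p53 and its target p21 and through the inhibitor p16 to keep the retinoblastoma family of proteins active, and these proteins silence genes needed for DNA synthesis and mitosis. Cells in that state are known to grow large and flat, to lose lamin B1 from the nuclear lamina, to enlarge their lysosomes, and to secrete proteases, chemokines and growth factor binding proteins.

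The values are FPKM (fragments counted on a transcript, divided by its length and by the size of the library), summed over the annotated transcripts of each gene. Of 44193 genes with annotated transcripts, 7550 had a mean of at least 5 FPKM over the PDL 15 and PDL 55 libraries. Leaving out 202 of them that had a transcript of status FAIL gave 7348 genes, 6227 of them protein coding. A ratio is log2((FPKM at PDL 55 + 1)/(FPKM in the reference + 1)), given relative to the median gene, because the median ratio as deposited was -0.34 against PDL 15 and 0.29 against control siRNA. A gene was counted as higher or lower when it lay at least 2-fold from the median gene. At PDL 55, 727 genes were higher than at PDL 15 (9.89% of those tested) and 764 were lower (10.4%). Without centring on the median gene the split was 451 higher and 1314 lower. The quartiles of all centred ratios were -0.47 and 0.49. Against control siRNA the counts were 1250 (17.0%) and 1129 (15.4%). The count of called genes on each list below is to be read beside these shares.

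The ratios against the 2 references share the PDL 55 library, so the second checks a value and adds no replicate of PDL 55. Of the 727 higher genes, 494 were also at least 1.5-fold higher against control siRNA, and 121 pointed the other way. Of the 764 lower genes, 625 were at least 1.5-fold lower against control siRNA and 49 pointed the other way. Deposited 95% intervals, summed over transcripts, which describe the estimate within 1 library, did not overlap for 713 of the higher and 763 of the lower genes. A gene at under 5 FPKM in its lower library passed the minimum only through the other library and had to differ. This holds for 241 of the higher and 448 of the lower genes, so a count over the genes of a list that passed describes those genes and not the list. Where adding assembled transcripts, those without an annotated name, moved the ratio of a gene by over 1.5 times, that value is given beside it. The members of the main lists that fell under the minimum are counted beside those that passed. The matching share over all genes under the minimum was not computed. Without the minimum, 2271 of 29756 genes were lower and 1072 higher, so more genes were lower than higher before any list was considered.

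**Figure D1:**
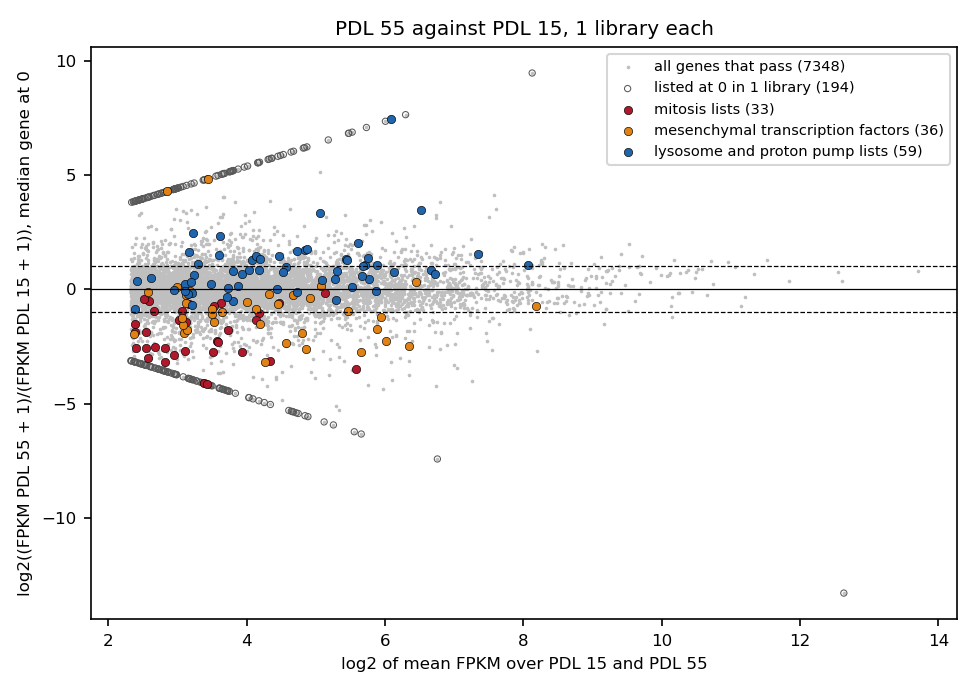
Log2 ratio of FPKM + 1 at PDL 55 to PDL 15 (vertical axis, median gene at 0) against log2 of the mean FPKM (horizontal axis) for the 7348 genes, 1 library a group, with dashed lines at 2-fold. The 33 mitosis genes (red) and 36 mesenchymal transcription factors (orange) lie mostly below 0, the 59 genes of the lysosome and its proton pump (blue) mostly above, and open circles are the 194 genes at 0 FPKM at PDL 15 or PDL 55.

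The libraries were checked against fibroblast markers. The collagen gene COL1A1 was at 1702 FPKM at PDL 15, 573 at PDL 55 and 945 with control siRNA. The summed level of the 10 fibroblast markers was 3195, 1107 and 1427 FPKM in the same order. The summed levels were 5.94, 2.03 and 3.26 for 8 epithelial markers and 15.5, 7.68 and 13.1 for 7 endothelial markers. Leukocyte markers summed to 32.6, 22.4 and 37.3, smooth muscle markers to 125, 77.3 and 39.4, and mesothelial markers to 9.82, 12.1 and 10.9. The defining marker VIM, which encodes the filament protein vimentin, was listed at 0 in every library, THY1 at 0 in both untransfected ones, and PDGFRA at 0 in both PDL 15 ones. An exact 0 in these tables can therefore be a failed estimate: of 78 cytosolic ribosomal protein genes, which every cell uses, 8, 3 and 4 were listed at 0 at PDL 15, at PDL 55 and with control siRNA. Among the genes tested, 97 of the higher ones had 0 FPKM at PDL 15, and 97 of the lower ones had 0 at PDL 55. They are counted, but no ratio is given for them. The control siRNA library stands apart: its coverage per unit of FPKM was 0.3003, against 1.26 at PDL 15 and 1.29 at PDL 55, and assembled fragments under 100 nt held 73.9% of its FPKM times length, against 4.09% and 8.18%. It listed 351 of the 7348 genes at 0. The part of these differences in any ratio against control siRNA was not tested.

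Genes by which senescent fibroblasts are usually recognised differed in both directions. LMNB1, which encodes lamin B1 (ENSG00000113368, hg19 chromosome 5, 126112315 to 126172712), was at 33.1 FPKM at PDL 15, 0.893 at PDL 55 and 18.5 with control siRNA. Its deposited 95% intervals were 27.9 to 38.4 at PDL 15 and 0.141 to 1.65 at PDL 55, and the ratio was -3.83 against PDL 15 and -3.65 against control siRNA. Both PDL 15 libraries were thus well above the PDL 55 library. HMGB2, a chromatin protein that bends DNA, was at 29.5 FPKM at PDL 15, 2.68 at PDL 55 and 39.0 with control siRNA, with ratios of -2.71 and -3.73. MKI67, which encodes the proliferation antigen Ki-67, was at 11.1 FPKM at PDL 15, 0.503 at PDL 55 and 4.72 with control siRNA (-2.68 and -2.21, -3.92 with assembled transcripts). CDKN1A, which encodes the p53-induced cyclin-dependent kinase inhibitor p21 (ENSG00000124762, hg19 chromosome 6, 36644305 to 36655116), went the other way and was at 145 FPKM at PDL 15, 351 at PDL 55 and 74.2 with control siRNA. Its intervals were 138 to 153 at PDL 15 and 342 to 359.8 at PDL 55, and its ratios were 1.6 and 1.94. CCND2, the gene of cyclin D2 (ENSG00000118971, hg19 chromosome 12, 4382938 to 4414516), was at 1.40 FPKM at PDL 15, 65.6 at PDL 55 and 7.27 with control siRNA, with ratios of 5.13 and 2.72 (6.02 against PDL 15 with assembled transcripts) and intervals of 1.23 to 1.57 at PDL 15 and 64.3 to 67 at PDL 55. It stood first in the ranking of higher genes above 0 in all 3 libraries, whose further conditions are given below. On this scale CCND2 differed 35.1-fold against PDL 15. Its antisense neighbour CCND2-AS1 was at 0.947 FPKM at PDL 15, 24.6 at PDL 55 and 1.41 with control siRNA. Strand is not stated for these reads, so the reads of CCND2 and CCND2-AS1 cannot be told apart. In bulk RNA, fewer cells that express a gene and less of its RNA in each cell cannot be told apart either.

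Of the 35 genes on that list, 19 passed, 5 of them higher and 6 lower. Other lower genes were HMGB1, the other abundant high mobility group B gene (ratio -1.32), and CDKN1B, which encodes the inhibitor p27 (-1.20). Other higher genes were E2F7, a repressor of the E2F family (2.65 against PDL 15 and 0.81 against control siRNA), and CCND3, cyclin D3 (2.18 and 1.12). LMNB1 and CCND2 thus lay farthest from the median gene on this list. Neither call was reached by the kinase genes CDK2, CDK4 and CDK6, the pocket protein gene RBL2, the transcription factor genes E2F3 and E2F6, the stress cytokine gene GDF15, or GLB1, which encodes the lysosomal beta-galactosidase whose activity is used to stain senescent cells. GLB1 was at 66.8 FPKM at PDL 15, 49.7 at PDL 55 and 24.1 with control siRNA, so its level at PDL 55 lay between those of the references. CDKN2A, the gene of p16, and CCNE2 were listed at 0 in all 3 libraries, and CCND1 and MDM2 had a transcript of status FAIL. CDKN1C, CDKN2B, CDKN2C, CDKN2D, CCNE1, RB1, RBL1, E2F1, E2F2, E2F4, E2F5 and E2F8 were under the minimum. Among these, RBL1, an E2F-regulated pocket protein gene, was at 5.90 FPKM at PDL 15, 1.64 at PDL 55 and 3.20 with control siRNA.

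**Figure D2:**
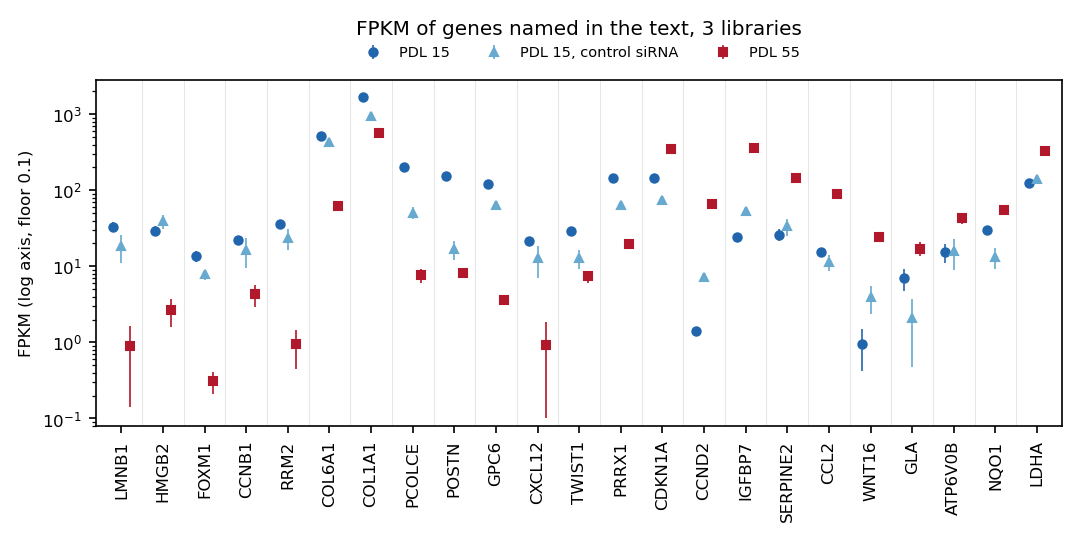
FPKM of 23 genes on a log axis in the PDL 15 library (dark blue circles), the PDL 15 library with control siRNA (light blue triangles) and the PDL 55 library (red squares), with the deposited 95% interval of each estimate as a bar and values under 0.1 drawn at 0.1. From LMNB1 to PRRX1 the red square lies below both PDL 15 symbols, and from CDKN1A to LDHA above both.

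Most genes of mitosis that passed were lower at PDL 55. The 3 lists (entry and exit, kinetochore and checkpoint, spindle and cytokinesis) hold 90 genes, of which 33 passed. Of those, 24 were lower at PDL 55 and 0 higher, beside 10.4% and 9.89% of all genes. Their median ratio was -1.88 against PDL 15 and -2.14 against control siRNA, where 26 of them were lower. Of the 24, 21 were under 5 FPKM at PDL 55 and so passed through the PDL 15 library. Of the 52 members under the minimum, 38 lay below the median gene, 7 lay above it and 7 were listed at 0 in both libraries. CDK1, the kinase that starts mitosis, was one of them, at 3.95 FPKM at PDL 15, 0.268 at PDL 55 and 1.63 with control siRNA. CCNA2, which encodes its partner cyclin A2, was at 5.75 FPKM at PDL 15, 0.941 at PDL 55 and 5.76 with control siRNA. The checkpoint kinase gene TTK was at 5.30 FPKM at PDL 15, 0.169 at PDL 55 and 4.76 with control siRNA.

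Many promoters of mitotic genes carry a CCAAT box, which binds the factor NF-Y, and a cell cycle homology region with the core TTTGAA, at which the DREAM and MuvB complexes bind. These letters were read on both strands of the 300 bases around the start of each gene in RefSeq (GRCh38.p14), of which 27305 genes have a window. Of the genes tested, 5159 had a window; 10.1% of these held TTTGAA, 36.2% CCAAT and 4.09% both. TTTGAA was in 15.4% of all windows and in 58.1% of 74 windows of the mitosis lists, CCAAT in 35.7% and 70.3%, and both were in 6.08% and 44.6%. Among the 24 lower mitosis genes, 18 had a window and 55.6% of those held both motifs. Of the 9 that passed without a 2-fold difference, 7 had a window and 71.4% of those held both, so these letters were no rarer among them. The match describes letters and not binding. The last 140 bases before the start are shown for 5 of the lower genes, chosen to show where the motifs lie: the cyclin genes CCNB2 (chr15:59105006-59105145, plus strand) and CCNB1 (chr5:69167010-69167149, plus strand), the anaphase activator CDC20 (chr1:43358841-43358980, plus strand), the midzone bundling protein PRC1 (chr15:90994536-90994675, minus strand) and the kinesin KIF18A (chr11:28108157-28108296, minus strand). Each reads 5′ to 3′ in the direction of its gene, and capitals mark TTTGAA and CCAAT.
CCNB2: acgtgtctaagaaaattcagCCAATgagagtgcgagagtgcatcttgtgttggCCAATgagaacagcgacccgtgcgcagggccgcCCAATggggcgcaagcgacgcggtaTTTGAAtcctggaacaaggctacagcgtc
CCNB1: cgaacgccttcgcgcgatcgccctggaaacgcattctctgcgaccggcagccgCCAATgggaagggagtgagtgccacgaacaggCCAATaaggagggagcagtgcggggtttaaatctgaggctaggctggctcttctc
CDC20: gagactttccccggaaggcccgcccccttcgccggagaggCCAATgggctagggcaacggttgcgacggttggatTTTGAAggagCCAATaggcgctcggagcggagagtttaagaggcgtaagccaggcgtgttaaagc
PRC1: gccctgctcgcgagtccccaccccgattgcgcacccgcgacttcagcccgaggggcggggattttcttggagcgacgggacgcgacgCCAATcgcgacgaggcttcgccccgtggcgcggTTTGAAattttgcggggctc
KIF18A: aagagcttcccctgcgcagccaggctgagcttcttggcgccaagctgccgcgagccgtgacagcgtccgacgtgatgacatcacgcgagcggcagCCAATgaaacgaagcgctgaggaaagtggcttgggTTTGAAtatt
In the CCNB2, PRC1 and KIF18A windows TTTGAA lies nearer to the start than the last CCAAT, in the CDC20 window it lies between 2 CCAAT boxes, and the CCNB1 window holds 2 CCAAT boxes and no TTTGAA.

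The 5 genes whose promoters are shown were all lower at PDL 55. CCNB2 was at 10.3 FPKM at PDL 15, 1.42 at PDL 55 and 7.33 with control siRNA (ratios -1.88 and -2.07). CCNB1 was at 22.3 FPKM at PDL 15, 4.31 at PDL 55 and 16.6 with control siRNA (-1.79 and -2.02). CDC20 was at 14.7 FPKM at PDL 15, 0.698 at PDL 55 and 24.5 with control siRNA (-2.87 and -4.19), the largest difference of the 5. PRC1 was at 16.2 FPKM at PDL 15, 1.12 at PDL 55 and 11.7 with control siRNA (-2.68), and KIF18A, which damps chromosome movements at the metaphase plate, was at 8.74 FPKM at PDL 15, 1.70 at PDL 55 and 9.20 with control siRNA (-1.51). FOXM1, a transcription factor that switches on mitotic genes, was at 13.8 FPKM at PDL 15, 0.310 at PDL 55 and 7.82 with control siRNA, with ratios of -3.16 and -3.04. The 2 PDL 15 libraries did not match each other for the ubiquitin-conjugating enzyme gene UBE2C, at 13.3 FPKM at PDL 15, 0.899 at PDL 55 and 62.3 with control siRNA, or the securin gene PTTG1, at 21.1 FPKM at PDL 15, 2.62 at PDL 55 and 109.9 with control siRNA, but the PDL 55 library was the lowest of the 3 for both.

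Of 35 genes of the kinetochore, which ties chromosomes to the spindle, 8 passed and 5 of these were lower. KNL1, a kinetochore scaffold, was at 21.2 FPKM at PDL 15, 1.64 at PDL 55 and 21.4 with control siRNA (-2.73), and the checkpoint kinase BUB1 at 10.1 FPKM at PDL 15, 0.494 at PDL 55 and 3.07 with control siRNA (-2.56). CENPF, SKA3 and SPC25 lay between -2.5 and -1.35 (CENPF at -3.36 with assembled transcripts). Of the genes of the spindle and of cytokinesis, ANLN, which encodes the cleavage furrow protein anillin, was the most abundant at 90.2 FPKM at PDL 15, 5.35 at PDL 55 and 62.2 with control siRNA (-3.51). CIT, the citron kinase, was at 38.1 FPKM at PDL 15, 2.47 at PDL 55 and 45.4 with control siRNA (-3.16). NUSAP1, TACC3, ASPM, TPX2, RACGAP1 and CKAP2 were lower with ratios from -3.02 to -1.02. KIF23 and KIF20A, 2 kinesins of the midzone, were listed at 0 at PDL 55 and at 21.6 and 20.8 FPKM at PDL 15. The members that passed without a 2-fold difference included BUB3, which also acts outside the checkpoint, at 41.2 FPKM at PDL 15, 28.6 at PDL 55 and 21.9 with control siRNA (-0.17), and KPNA2, an importin, at 29.3 FPKM at PDL 15, 14.9 at PDL 55 and 42.3 with control siRNA (-0.59). The anaphase-promoting complex, which CDC20 activates, did not share the pattern: of 11 subunit genes that passed, 4 were higher and 2 lower, and 3 of these 6 had 0 FPKM at PDL 15 or PDL 55.

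DNA replication genes were mostly of low level and leaned lower. Of 56 genes of origins, helicase, fork and polymerases, 15 passed (median -0.76). Of these, 7 were lower and 0 higher, beside 10.4% and 9.89% of all genes. Of the 7, 5 were under 5 FPKM at PDL 55 and so passed through the PDL 15 library, and 1 was listed at 0 at PDL 55. Of the 39 under the minimum, 30 lay below the median gene and 3 above it. MCM3, a helicase subunit, was at 9.61 FPKM at PDL 15, 1.97 at PDL 55 and 6.98 with control siRNA (-1.5), and FEN1, the flap nuclease that trims Okazaki fragments, at 8.96 FPKM at PDL 15, 1.87 at PDL 55 and 10.6 with control siRNA (-1.46). The primase subunit PRIM2 was at 41.1 FPKM at PDL 15, 11.7 at PDL 55 and 27.6 with control siRNA (-1.39), and WDHD1, a fork protein, at 15.0 FPKM at PDL 15, 3.08 at PDL 55 and 7.86 with control siRNA (-1.64). For MCM6 the 2 references disagreed: it was at 18.6 FPKM at PDL 15, 2.64 at PDL 55 and 2.74 with control siRNA, so only the untransfected PDL 15 library was higher. PCNA, the sliding clamp, was at 19.3 FPKM at PDL 15, 8.50 at PDL 55 and 7.16 with control siRNA and not called (-0.76). Windows of replication genes held GCGGGAA, a core of E2F sites, in 37.5% of 48, against 6.56% of all and 10.4% of those of the genes tested, and TTTGAA in 4.17%.

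Of 24 nucleotide synthesis genes 17 passed, 4 of them lower and 2 higher. RRM2, the S-phase subunit of ribonucleotide reductase, was at 36.2 FPKM at PDL 15, 0.962 at PDL 55 and 23.5 with control siRNA, with ratios of -3.91 and -3.93. Thymidine kinase TK1 was at 14.5 FPKM at PDL 15, 1.08 at PDL 55 and 10.7 with control siRNA (-2.56), and thymidylate synthase TYMS at 33.9 FPKM at PDL 15, 6.43 at PDL 55 and 26.2 with control siRNA (-1.89). In all 3 the PDL 55 library was the lowest. RRM2B, the p53-induced subunit that serves cells outside S phase, was higher, at 31.8 FPKM at PDL 15, 56.0 at PDL 55 and 17.6 with control siRNA (1.14 and 1.33). In purine synthesis ATIC was higher (1.19 and 0.30, 0.44 with assembled transcripts and -0.41 with its top transcript alone) and PAICS lower (-1.04, but 0.05 against control siRNA), while GMPS and IMPDH2, like the pyrimidine gene CTPS1, were within 2-fold of the median gene. Of 28 homologous recombination and Fanconi genes 8 passed, 5 of them lower and 0 higher, beside 10.4% and 9.89% of all genes. All 5 were under 5 FPKM at PDL 55 and so passed through the PDL 15 library. Of the 20 under the minimum, 14 lay below the median gene and 3 above it. BARD1, the partner of BRCA1, was at 12.6 FPKM at PDL 15, 1.42 at PDL 55 and 7.004 with control siRNA (-2.15), and RAD51AP1, RAD54B and UBE2T lay between -1.90 and -1.39. Of 16 genes of end joining, mismatch and excision repair that passed, 0 were lower and 1 was higher, POLB, which was listed at 0 at PDL 15. XRCC5, the large subunit of Ku, was at 154 FPKM at PDL 15, 111 at PDL 55 and 38.5 with control siRNA (-0.13).

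The clustered histone genes, whose mRNAs are made in S phase, went both ways. Of 45 protein-coding members, chosen after their values were seen, 15 passed, 7 of them lower and 4 higher, beside 10.4% and 9.89% of all genes. All 7 were under 5 FPKM at PDL 55 and so passed through the PDL 15 library. Of the 4 higher ones, 1 was under 5 FPKM at PDL 15. The 3 linker histone genes HIST1H1E, HIST1H1D and HIST1H1A were among the lowest ratios in the data. HIST1H1E was at 41.8 FPKM at PDL 15, 1.34 at PDL 55 and 32.2 with control siRNA (-3.85 and -4.11). HIST1H1D was at 23.9 FPKM at PDL 15, 0.558 at PDL 55 and 16.8 with control siRNA (-3.66) and HIST1H1A at 20.2 FPKM at PDL 15, 0.445 at PDL 55 and 14.1 with control siRNA (-3.53). The core histone genes HIST1H3J, HIST1H2AI, HIST1H2AJ and HIST2H2AC lay between -3.07 and -2.30, and HIST1H2AJ was listed at 0 with control siRNA. In the other direction stood HIST1H2BK, known to give polyadenylated mRNA outside S phase, at 64.2 FPKM at PDL 15, 239.8 at PDL 55 and 40.9 with control siRNA (2.22 and 2.24). HIST1H4H was at 10.4 FPKM at PDL 15, 33.3 at PDL 55 and 41.4 with control siRNA (1.93 and -0.59), and HIST2H2AA3 at 13.5 FPKM at PDL 15, 23.0 at PDL 55 and 18.9 with control siRNA (1.06 and -0.02), so their ratios changed sign with the reference. HIST1H1C, HIST1H2AC, HIST1H2BD and HIST2H2BF lay within 2-fold of the median gene. Among the 29 under the minimum, 14 lay below the median gene and 11 above it. The genes of the cluster are nearly identical within a class, so reads may have been shared between them and single-gene values are uncertain. The kit amplified RNA with and without a polyA tail.

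**Figure D3:**
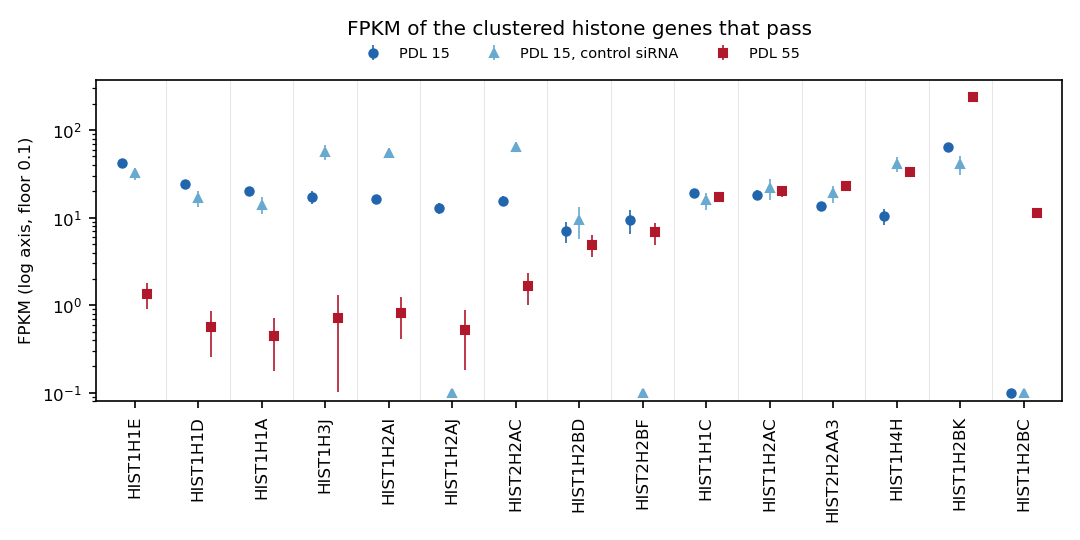
FPKM on a log axis of the 15 clustered histone genes that passed, ordered by their ratio of PDL 55 to PDL 15, in the PDL 15 library (dark blue circles), with control siRNA (light blue triangles) and at PDL 55 (red squares), with deposited 95% intervals and values under 0.1 drawn at 0.1. The PDL 55 square lies below the PDL 15 circle for the 7 genes on the left, from HIST1H1E to HIST2H2AC, and above it for the 4 on the right, from HIST2H2AA3 to HIST1H2BC.

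Other chromatin genes differed mostly in the lower direction. H2AFZ, the replication-independent variant H2A.Z, was at 192 FPKM at PDL 15, 54.3 at PDL 55 and 99.9 with control siRNA (-1.46 and -1.15), while the variant H2AFJ was higher, at 4.78 FPKM at PDL 15, 9.41 at PDL 55 and 5.61 with control siRNA (1.19 and 0.37). EZH2, the methyltransferase of Polycomb complex 2, was at 10.8 FPKM at PDL 15, 1.46 at PDL 55 and 5.55 with control siRNA (-1.93 and -1.70). HELLS, a remodelling factor needed for DNA methylation, was at 10.2 FPKM at PDL 15, 0.159 at PDL 55 and 5.61 with control siRNA (-2.94, -2.11 with assembled transcripts). JARID2, a cofactor of EZH2, was at 36.8 FPKM at PDL 15, 9.45 at PDL 55 and 17.2 with control siRNA (-1.52). Of 13 DNA methylation and Polycomb genes that passed, 6 were lower and 0 higher, beside 10.4% and 9.89% of all genes. Of these 6, 4 were under 5 FPKM at PDL 55 and so passed through the PDL 15 library. The 11 members under the minimum showed no such lean, with 6 below the median gene and 5 above it. DNMT3A, a de novo methyltransferase, was one of the 6 lower genes that passed (-1.14), but was higher against control siRNA (0.80). LBR, the lamin B receptor, was at 12.4 FPKM at PDL 15, 3.19 at PDL 55 and 13.5 with control siRNA (-1.34). The histone chaperone genes SSRP1, DAXX and ANP32B and the nucleosome-binding HMGN2 lay between -1.44 and -1.12. HMGA1 and HMGA2, whose proteins are found in the condensed chromatin foci of senescent fibroblasts, were not called: HMGA1 was at 146 FPKM at PDL 15, 137 at PDL 55 and 341 with control siRNA and HMGA2 at 347 FPKM at PDL 15, 346 at PDL 55 and 439.9 with control siRNA. None of 7 deacetylase and sirtuin genes that passed differed 2-fold against PDL 15, and 2 were lower against control siRNA.

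Several groups of matrix genes were lower at PDL 55. Of 13 fibrillar and fibril-associated collagen genes, 12 passed (median -1.36 against PDL 15 and -0.998 against control siRNA). Of these, 8 were lower and 1 higher, beside 10.4% and 9.89% of all genes. Of the 8, 3 were under 5 FPKM at PDL 55, among them COL14A1, listed at 0. Against control siRNA 6 were lower and 1 higher, beside 15.4% and 17.0% of all genes. The 3 chains of collagen VI, which forms beaded filaments around cells, were all among the 8 lower genes. COL6A1 (ENSG00000142156, hg19 chromosome 21, 47401651 to 47424964) was at 524 FPKM at PDL 15, 63.0 at PDL 55 and 436 with control siRNA (-2.70 and -3.06). COL6A2 was at 237 FPKM at PDL 15, 17.8 at PDL 55 and 128 with control siRNA (-3.32 and -3.07), and COL6A3 at 332 FPKM at PDL 15, 40.9 at PDL 55 and 124 with control siRNA (-2.65 and -1.86, -2.02 with assembled transcripts). The 2 chains of collagen I differed less: COL1A1, with the values given above, had ratios of -1.23 and -1.01, but 6.34 against PDL 15 once its transcripts of status LOWDATA were left out. COL1A2 was at 816 FPKM at PDL 15, 353 at PDL 55 and 198 with control siRNA, and its ratios of -0.87 and 0.55 differed in sign. COL3A1 was at 224 FPKM at PDL 15, 32.6 at PDL 55 and 38.9 with control siRNA (-2.41 and -0.53), so its large difference was from the untransfected library. COL11A1 was the higher one, at 6.47 FPKM at PDL 15, 19 at PDL 55 and 10.0 with control siRNA (1.76).

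Genes that process collagen went both ways, 4 higher and 4 lower of 21 that passed. PCOLCE, which speeds removal of the procollagen C-propeptide, was at 205 FPKM at PDL 15, 7.71 at PDL 55 and 51.0 with control siRNA (-4.22 and -2.86). SERPINH1, the collagen chaperone HSP47, was at 160.5 FPKM at PDL 15, 47.2 at PDL 55 and 217 with control siRNA (-1.41 and -2.46). On the other side, PLOD2, the lysyl hydroxylase of collagen telopeptides, was at 21.3 FPKM at PDL 15, 68.7 at PDL 55 and 26.2 with control siRNA (1.98), and the prolyl hydroxylase P3H2 at 32.2 FPKM at PDL 15, 126 at PDL 55 and 58.5 with control siRNA (2.27). SPARC, a collagen-binding glycoprotein, was at 574 FPKM at PDL 15, 897 at PDL 55 and 135 with control siRNA (0.98, just short of 2-fold).

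Elastic fibre genes had 7 lower and 0 higher of 11 that passed, beside 10.4% and 9.89% of all genes. Of the 7, 4 were under 5 FPKM at PDL 55 and so passed through the PDL 15 library. With control siRNA as the reference 4 were lower, beside 15.4% of all genes. Only 2 of the called genes, FBLN1 and FBN2, were above 0 in both libraries and at least 1.5-fold lower against control siRNA as well. FBLN1, fibulin 1, was at 132 FPKM at PDL 15, 5.63 at PDL 55 and 17.7 with control siRNA (-3.98 and -1.78, -4.82 with assembled transcripts), and the fibrillin FBN2 at 32.6 FPKM at PDL 15, 4.69 at PDL 55 and 11.8 with control siRNA (-2.22 and -1.45). MFAP4, a microfibril protein, was at 196 FPKM at PDL 15, 24.8 at PDL 55 and 22.6 with control siRNA, level with control siRNA (-2.60 and -0.16). FBLN5 and LTBP2 were listed at 0 at PDL 55, where all of their FPKM lay in assembled transcripts; with those added the ratios were 0.19 and -0.10. The most abundant uncalled member was the latent TGF-beta binding protein LTBP1, at 343 FPKM at PDL 15, 341 at PDL 55 and 346 with control siRNA. The basement membrane list had no called gene among 10 that passed; LAMB1, a laminin chain, was at 215 FPKM at PDL 15, 203 at PDL 55 and 56.2 with control siRNA (0.26) and LAMC1 at 153 FPKM at PDL 15, 169 at PDL 55 and 85.6 with control siRNA (0.48). Both laminin chains were thus within 2-fold of the median gene.

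Proteoglycans and matricellular proteins held some of the largest differences. GPC6, a glypican that carries heparan sulphate on the cell surface, was at 122 FPKM at PDL 15, 3.66 at PDL 55 and 64.0 with control siRNA (-4.38 and -4.09), and its antisense neighbour GPC6-AS1 at 23.5 FPKM at PDL 15, 0.523 at PDL 55 and 9.30 with control siRNA. BGN, biglycan, was at 175 FPKM at PDL 15, 23.6 at PDL 55 and 69.0 with control siRNA (-2.5 and -1.80), and the large aggregating proteoglycan VCAN at 131 FPKM at PDL 15, 28.1 at PDL 55 and 111 with control siRNA (-1.84 and -2.23). DCN, decorin, was at 314 FPKM at PDL 15, 85.2 at PDL 55 and 58.5 with control siRNA, lower than the untransfected library only (-1.53 and 0.25). TNC, tenascin C, was at 292 FPKM at PDL 15, 13.3 at PDL 55 and 45.5 with control siRNA (-4.02 and -1.99, -2.16 with assembled transcripts), POSTN, periostin, at 155 FPKM at PDL 15, 8.30 at PDL 55 and 16.9 with control siRNA (-3.73 and -1.23), and ABI3BP at 38.6 FPKM at PDL 15, 0.652 at PDL 55 and 13.8 with control siRNA (-4.24 and -3.45). These 3 lay below both PDL 15 libraries. THBS1, thrombospondin 1, was at 915 FPKM at PDL 15, 1112 at PDL 55 and 371 with control siRNA (0.62), and FN1, fibronectin, at 816 FPKM at PDL 15, 353 at PDL 55 and 291 with control siRNA (-0.87). Of the proteases and inhibitors, TIMP1 was at 900.0 FPKM at PDL 15, 245 at PDL 55 and 647 with control siRNA (-1.53 and -1.68), while the aggrecanase ADAMTS1 was at 46.6 FPKM at PDL 15, 99.8 at PDL 55 and 36.6 with control siRNA (1.42). MMP2, gelatinase A, was at 306 FPKM at PDL 15, 129.7 at PDL 55 and 47.3 with control siRNA, and its ratios of -0.89 and 1.15 had opposite signs (-0.23 with assembled transcripts).

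Integrins, the receptors that bind matrix proteins, stood on the other side. Of 16 genes on the integrin list 10 passed, with 7 higher and 1 lower beside 9.89% and 10.4% of all genes (median 1.59 and 1.45). The 7 include ITGBL1, an integrin-like gene that encodes no receptor chain, and none of them was under 5 FPKM at PDL 15. With assembled transcripts added the median was 0.76 and 4 were higher. ITGB1, the beta chain that most of these pair with, had a transcript of status FAIL and was not compared. ITGA11, a collagen receptor chain of fibroblasts, was at 7.83 FPKM at PDL 15, 29.9 at PDL 55 and 2.77 with control siRNA (2.15 and 2.75), and ITGA2, another collagen receptor chain, at 18.5 FPKM at PDL 15, 44.9 at PDL 55 and 9.19 with control siRNA (1.58 and 1.89, 0.76 with assembled transcripts). ITGB5, which pairs with the alpha V chain, was at 61.9 FPKM at PDL 15, 123 at PDL 55 and 29.4 with control siRNA (1.32 and 1.75). ITGA3 was at 28.3 FPKM at PDL 15, 69.3 at PDL 55 and 45.9 with control siRNA (1.6 and 0.30), and the ratio of ITGBL1 was 1.66 (0.89 with assembled transcripts). ITGA6, a laminin receptor chain, was at 17.2 FPKM at PDL 15, 59.3 at PDL 55 and listed at 0 with control siRNA (2.06). ITGA5, the fibronectin receptor chain, was at 8.62 FPKM at PDL 15, 24.3 at PDL 55 and 5.86 with control siRNA (1.73, but 0.18 with assembled transcripts). ITGB8 was the lower one, at 13.2 FPKM at PDL 15, 0.440 at PDL 55 and 5.003 with control siRNA (-2.96 and -2.35). Among cell-cell contact genes, CDH2, N-cadherin, was at 43.6 FPKM at PDL 15, 1.88 at PDL 55 and 14.3 with control siRNA (-3.61 and -2.69, -2.92 with assembled transcripts) and CLDN11, a claudin, at 74.1 FPKM at PDL 15, 6.61 at PDL 55 and 24.5 with control siRNA (-2.97). CD9, a tetraspanin, was at 24.9 FPKM at PDL 15, 57.1 at PDL 55 and 23.2 with control siRNA (1.5, 0.89 with assembled transcripts). Contractile and cytoskeletal genes were mostly within 2-fold of the median gene against PDL 15: of 29 contractile genes that passed, 3 were higher and 4 lower, and of 40 actin remodelling genes 2 and 2. Against control siRNA these counts were 11 and 3, and 8 and 5. STMN1, the microtubule destabiliser stathmin, was at 32.5 FPKM at PDL 15, 10.0 at PDL 55 and 43.0 with control siRNA (-1.26 and -2.28), while MAP1A, which stabilises microtubules, was at 8.37 FPKM at PDL 15, 32.0 at PDL 55 and 16 with control siRNA (2.16, 0.94 with assembled transcripts) and DYNLT3, a dynein light chain, at 22.1 FPKM at PDL 15, 66.3 at PDL 55 and 14.7 with control siRNA (1.88).

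**Figure D4:**
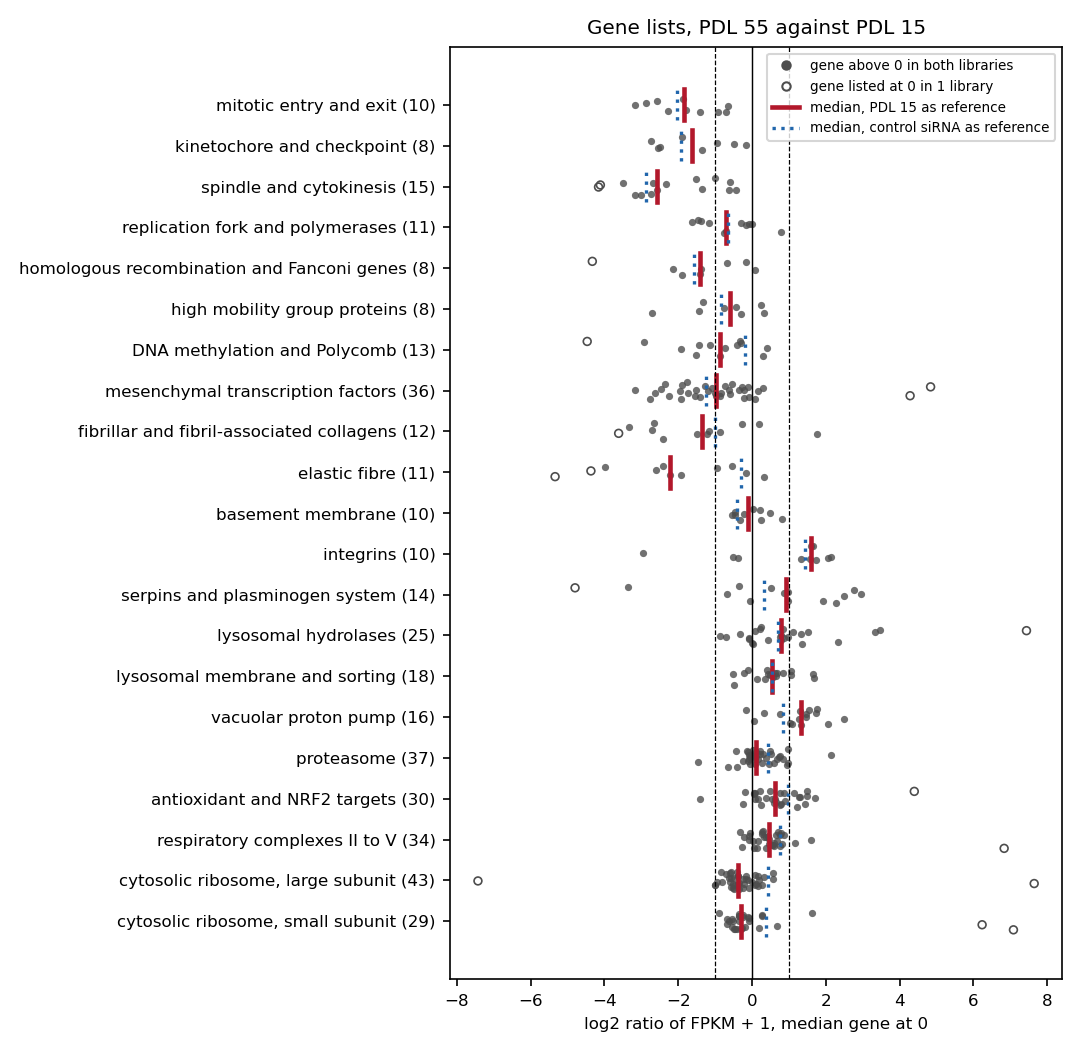
Log2 ratio of FPKM + 1 at PDL 55 to PDL 15 (median gene at 0, dashed lines at 2-fold) for the genes of 21 lists that passed, number in brackets, with 1 point a gene and open points for genes listed at 0 in 1 library. Red bars are list medians against PDL 15 and dotted blue bars medians against control siRNA: both lie below -1 for the 3 mitosis lists and above 0.5 for integrins, lysosomal lists and proton pump, while for the ribosome lists they lie on opposite sides of 0.

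Secreted factors differed in both directions. IGFBP7, a matrix-bound insulin-like growth factor binding protein (ENSG00000163453, hg19 chromosome 4, 57896939 to 57976551), was at 24.6 FPKM at PDL 15, 357 at PDL 55 and 54.3 with control siRNA. Its intervals were 23.0 to 26.1 at PDL 15 and 348 to 366 at PDL 55, and its ratios were 4.15 and 2.41. On the list of the IGF axis, 4 of 10 genes that passed were higher and 2 lower, beside 9.89% and 10.4% of all genes. The hormone stanniocalcin STC1 was higher, at 16.5 FPKM at PDL 15, 107 at PDL 55 and 43.0 with control siRNA (2.96 and 1.003). IGFBP5 was lower, at 41.2 FPKM at PDL 15, 8.39 at PDL 55 and 93.0 with control siRNA (-1.83, but -0.21 with assembled transcripts). Among cytokine and chemokine genes 5 were higher and 4 lower of 14 that passed, beside the same shares of all genes. CCL2, which attracts monocytes, was at 15.2 FPKM at PDL 15, 90.3 at PDL 55 and 11.3 with control siRNA (2.83 and 2.60). CXCL12, which retains CXCR4-bearing cells, was at 21.5 FPKM at PDL 15, 0.920 at PDL 55 and 12.7 with control siRNA (-3.21 and -3.12). TNFRSF11B, the decoy receptor osteoprotegerin, was at 163 FPKM at PDL 15, 471 at PDL 55 and 30.7 with control siRNA (1.87 and 3.61), and TNFRSF10D, a decoy receptor for TRAIL, at 17.1 FPKM at PDL 15, 62.7 at PDL 55 and 14.3 with control siRNA (2.15). TNFRSF19, a receptor of the same family, was at 61.1 FPKM at PDL 15, 2.32 at PDL 55 and 22.4 with control siRNA (-3.89 and -3.10). The interleukins best known from senescent cells were under the minimum: IL6 was at 3.81 FPKM at PDL 15, 2.08 at PDL 55 and 0.239 with control siRNA, and CXCL8, IL1A and IL1B were below 5 FPKM on average as well.

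Serpins and the clotting system had 5 higher and 2 lower of 14, beside 9.89% and 10.4% of all genes. SERPINE2, the protease nexin 1, was at 26.1 FPKM at PDL 15, 145 at PDL 55 and 33.8 with control siRNA (2.77 and 1.78), and F3, tissue factor, at 24.7 FPKM at PDL 15, 112 at PDL 55 and 33.2 with control siRNA (2.48 and 1.44). SERPINB2 was at 1.76 FPKM at PDL 15, 15.8 at PDL 55 and 10.1 with control siRNA, near control siRNA (0.31), while SERPINB7 was at 1.6 FPKM at PDL 15, 8.92 at PDL 55 and 2.5 with control siRNA (2.27). SERPINF1, the antiangiogenic factor PEDF, was lower, at 47.4 FPKM at PDL 15, 2.72 at PDL 55 and 9.46 with control siRNA (-3.36 and -1.78). In the complement list, the protease C1R was at 105 FPKM at PDL 15, 3.53 at PDL 55 and 9.34 with control siRNA (-4.21 and -1.48). The membrane regulators CD46 and CD59, which protect the cell's own surface, were higher, CD46 at 78.9 FPKM at PDL 15, 154 at PDL 55 and 36.0 with control siRNA (1.29 and 1.78) and CD59 at 17.0 FPKM at PDL 15, 34.6 at PDL 55 and 15.9 with control siRNA (1.32 and 0.79).

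Of 18 Wnt pathway genes that passed, 5 were higher, 3 of them genes of secreted proteins of the Dickkopf family, and 3 were lower. WNT16 encodes the ligand among the higher genes. WNT16 was at 0.950 FPKM at PDL 15, 24.4 at PDL 55 and 3.96 with control siRNA (4.04 and 2.07). The Dickkopf genes DKK3, at 147 FPKM at PDL 15, 468 at PDL 55 and 143 with control siRNA (2.002 and 1.42), and DKK2, at 7.11 FPKM at PDL 15, 36.2 at PDL 55 and 7.98 with control siRNA (2.54 and 1.77), lay above both references. DKK1 was at 5.69 FPKM at PDL 15, 30.6 at PDL 55 and 21.5 with control siRNA (2.58 and 0.21). ROR2, a receptor for noncanonical Wnt signals, was at 17.8 FPKM at PDL 15, 0.931 at PDL 55 and 7.65 with control siRNA (-2.95), and TCF7L2, a transcription factor that pairs with beta-catenin, at 68.0 FPKM at PDL 15, 17.8 at PDL 55 and 61.1 with control siRNA (-1.54). In the TGF-beta pathway the ligands TGFB2, at 19.1 FPKM at PDL 15, 40.2 at PDL 55 and 13.4 with control siRNA (1.37), and INHBA, a chain of activin, at 82.2 FPKM at PDL 15, 185 at PDL 55 and 91.6 with control siRNA (1.5), were higher. The receptor genes TGFBR1, at 19.8 FPKM at PDL 15, 3.37 at PDL 55 and 4.58 with control siRNA (-1.92 and -0.64), and TGFBR3, at 39.5 FPKM at PDL 15, 4.11 at PDL 55 and 15.6 with control siRNA (-2.65 and -1.99), and the signal carrier SMAD1, at 43.8 FPKM at PDL 15, 7.50 at PDL 55 and 18.4 with control siRNA (-2.06), were lower. TGFBR2, whose product pairs with that of TGFBR1, was at 46.3 FPKM at PDL 55. It was listed at 0 in both PDL 15 libraries, where all of its FPKM lay in assembled transcripts. With those added the ratio of TGFBR2 was 1.59 against PDL 15.

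Among growth factors, the heparin-binding pair MDK and PTN was lower: midkine MDK was at 149 FPKM at PDL 15, 12.7 at PDL 55 and 52.1 with control siRNA (-3.12 and -2.24), and pleiotrophin PTN at 27.7 FPKM at PDL 15, 3.36 at PDL 55 and 15.0 with control siRNA (-2.38 and -2.16). The ErbB ligands NRG1, at 22.1 FPKM at PDL 15, 73.0 at PDL 55 and 32.5 with control siRNA (2.02), and EREG, at 1.86 FPKM at PDL 15, 13.2 at PDL 55 and 2.08 with control siRNA (2.65 and 1.92), were higher. FGF13, a fibroblast growth factor homologue that acts inside the cell, was at 9.19 FPKM at PDL 15, 76.2 at PDL 55 and 13.7 with control siRNA (3.26 and 2.11). The pregnancy-specific glycoproteins, placental proteins of the immunoglobulin family, were higher without exception among the 3 that passed. PSG4 was at 13.2 FPKM at PDL 15, 65.5 at PDL 55 and 13.1 with control siRNA (2.57 and 1.95), PSG5 at 5.29 FPKM at PDL 15, 26.1 at PDL 55 and 2.46 with control siRNA (2.44 and 2.68), and PSG9 at 1.10 FPKM at PDL 15, 17.3 at PDL 55 and 2.70 with control siRNA (3.46 and 2.02). Of the 8 under the minimum, 6 lay above the median gene and 2 were listed at 0 in both libraries. These genes are close copies of each other in 1 cluster, so their reads may have been shared and they are not independent observations. A pair of keratin-associated genes of another cluster, KRTAP2-1 at 2.94 FPKM at PDL 15, 28.6 at PDL 55 and 12.4 with control siRNA (3.25) and KRTAP2-2 at 2.28 FPKM at PDL 15, 22.4 at PDL 55 and 10.6 with control siRNA (3.17), carries the same caution.

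Genes of the lysosome and its proton pump leaned higher at PDL 55, although most lysosomal genes lay within 2-fold of the median gene. Of 77 genes for lysosomal hydrolases, membrane proteins and sorting, 43 passed, 12 of them higher and 0 lower, beside 9.89% and 10.4% of all genes (median 0.63 against PDL 15 and 0.65 against control siRNA). Against control siRNA 16 were higher and 3 lower, the latter GUSB (-1.25), MAN2B1 (-1.01) and AP1B1 (-1.52). Of the 27 under the minimum, 20 lay above the median gene and 3 below. GLA, alpha-galactosidase A (ENSG00000102393, hg19 chromosome X, 100652791 to 100662913), was at 7.03 FPKM at PDL 15, 17.2 at PDL 55 and 2.11 with control siRNA (1.52 and 2.26), with intervals of 4.74 to 9.32 at PDL 15 and 13.7 to 20.7 at PDL 55. LGMN, the protease legumain, was at 4.29 FPKM at PDL 15, 20.2 at PDL 55 and 2.53 with control siRNA (2.34 and 2.30). CTSK, cathepsin K, which degrades collagen, was at 6.64 FPKM at PDL 15, 59.98 at PDL 55 and 4.91 with control siRNA (3.34 and 3.08, 1.34 with assembled transcripts). For all 3 the PDL 55 library was the highest of the 3. The cholesterol exporters NPC1, at 4.73 FPKM at PDL 15, 13.2 at PDL 55 and 5.33 with control siRNA (1.65), and NPC2, at 35.4 FPKM at PDL 15, 72.7 at PDL 55 and 11.0 with control siRNA (1.36), the sialic acid transporter SLC17A5, at 14.5 FPKM at PDL 15, 38.5 at PDL 55 and 5.01 with control siRNA (1.69), and the tetraspanin CD63, at 205 FPKM at PDL 15, 335 at PDL 55 and 105 with control siRNA (1.05), were higher against both references. The ratios of SMPD1 and SGSH were 1.33 and 1.10. PSAP was listed at 0 at PDL 15, where all of its FPKM lay in assembled transcripts. The most abundant uncalled hydrolase was CTSA, at 84.0 FPKM at PDL 15, 120.0 at PDL 55 and 100.0 with control siRNA (0.85), and the structural membrane protein LAMP1 was at 46.7 FPKM at PDL 15, 54.9 at PDL 55 and 36.9 with control siRNA (0.57).

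The vacuolar proton pump, which acidifies lysosomes, has a membrane sector (V0) and a cytosolic ATPase sector (V1). Of 18 subunit and accessory genes 16 passed. Of these, 12 were higher and 0 lower, beside 9.89% and 10.4% of all genes (median 1.32 and 0.84). Against control siRNA 7 were higher, beside 17.0% of all genes. In the V0 sector, ATP6V0B was at 15.4 FPKM at PDL 15, 43.3 at PDL 55 and 15.8 with control siRNA (1.77 and 1.11), ATP6V0E1 at 98.3 FPKM at PDL 15, 226 at PDL 55 and 69.8 with control siRNA (1.53 and 1.40), and ATP6V0D1 at 39.2 FPKM at PDL 15, 66.0 at PDL 55 and 36.3 with control siRNA (1.07 and 0.56). In the V1 sector, ATP6V1A, the catalytic subunit, was at 30.0 FPKM at PDL 15, 57.8 at PDL 55 and 16.9 with control siRNA (1.26 and 1.43), ATP6V1D at 13.6 FPKM at PDL 15, 30.6 at PDL 55 and 7.27 with control siRNA (1.46 and 1.65), and ATP6V1G1 at 10.6 FPKM at PDL 15, 24.4 at PDL 55 and 9.38 with control siRNA (1.47 and 1.01). The accessory genes ATP6AP1, at 15.4 FPKM at PDL 15, 42.0 at PDL 55 and 8.62 with control siRNA (1.73), and ATP6AP2, at 28.5 FPKM at PDL 15, 58.0 at PDL 55 and 6.17 with control siRNA (1.34), were higher as well. The 8 genes just named lay above both PDL 15 libraries. ATP6V0C and ATP6V1C1 were counted as higher but were level with control siRNA (-0.22 and 0.02) and had ratios of 0.41 and 0.19 with assembled transcripts added.

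Many lysosomal genes carry a CLEAR element, whose core is the E-box CACGTG and which binds TFEB and related factors. CACGTG was in 7.43% of all promoter windows, in 10.6% of those of the genes tested and in 26.9% of 67 windows of the lysosome and pump lists. It was in 31.2% of 16 windows of higher members, in 16.7% of 24 windows of members that passed without a 2-fold difference, and in 33.3% of 27 windows of members under the minimum or of status FAIL. The last 140 bases before the start are shown for 3 higher pump genes that hold the motif, ATP6V0B (chr1:43974820-43974959, plus strand), ATP6V0D1 (chr16:67481158-67481297, minus strand) and ATP6V1G1 (chr9:114587629-114587768, plus strand), from RefSeq, GRCh38.p14, with CACGTG in capitals.
ATP6V0B: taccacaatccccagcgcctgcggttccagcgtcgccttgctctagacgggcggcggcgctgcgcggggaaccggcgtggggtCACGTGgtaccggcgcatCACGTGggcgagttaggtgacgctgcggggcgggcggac
ATP6V0D1: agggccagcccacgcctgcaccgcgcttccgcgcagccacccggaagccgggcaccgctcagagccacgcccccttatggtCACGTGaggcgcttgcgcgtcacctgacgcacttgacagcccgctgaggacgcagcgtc
ATP6V1G1: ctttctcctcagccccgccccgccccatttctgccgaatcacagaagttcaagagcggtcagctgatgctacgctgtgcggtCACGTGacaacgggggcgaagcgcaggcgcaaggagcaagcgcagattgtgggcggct
The motif starts 59 bases before the gene start of ATP6V0D1 and 58 before that of ATP6V1G1, and ATP6V0B holds it 2 times, the nearer copy 39 bases before the start. TFEB itself, at 5.28 FPKM at PDL 15, 5.37 at PDL 55 and 2.57 with control siRNA, was not called (0.36).

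Autophagy genes went both ways, 5 higher and 2 lower of 21 that passed, and those higher included 3 of the ubiquitin-like proteins that coat autophagosomes. MAP1LC3B was at 15.9 FPKM at PDL 15, 30.7 at PDL 55 and 9.85 with control siRNA (1.24 and 1.26), GABARAPL1 at 20.02 FPKM at PDL 15, 39.4 at PDL 55 and 11.1 with control siRNA (1.28 and 1.45), and GABARAPL2 at 19.1 FPKM at PDL 15, 32.4 at PDL 55 and 12.2 with control siRNA (1.07 and 1.06). ATG7, the enzyme that activates these proteins, was lower, at 100.5 FPKM at PDL 15, 31.8 at PDL 55 and 93.8 with control siRNA (-1.29 and -1.82). Proteasome genes lay mostly within 2-fold of the median gene: 1 of 37 genes was higher and 1 was lower, with a median of 0.11 (7 and 2 against control siRNA), and both of these, PSMD12 (2.15) and PSMA7 (-1.46), changed sign with assembled transcripts added (-1.15 and 0.26).

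Genes that handle oxidants and iron leaned higher. Of 30 antioxidant genes and targets of the factor NRF2 that passed, 9 were higher and 1 was lower (median 0.63 and 0.97). These counts stand beside 9.89% and 10.4% of all genes. Of the 8 under the minimum, 4 lay above the median gene and 2 below. The 2 chains of the iron store ferritin were both higher: FTL was at 2002 FPKM at PDL 15, 3864 at PDL 55 and 808 with control siRNA (1.29 and 1.97) and FTH1 at 534 FPKM at PDL 15, 1148 at PDL 55 and 133 with control siRNA (1.44 and 2.82). The peroxiredoxins PRDX1, at 103 FPKM at PDL 15, 230.4 at PDL 55 and 46.5 with control siRNA (1.49 and 1.997), and PRDX6, at 53.9 FPKM at PDL 15, 122 at PDL 55 and 28.9 with control siRNA (1.5 and 1.75), and thioredoxin TXN, at 39.5 FPKM at PDL 15, 68.9 at PDL 55 and 18.5 with control siRNA (1.13 and 1.55), lay above both references. So did NQO1, a quinone reductase and standard NRF2 target, at 29.7 FPKM at PDL 15, 55.4 at PDL 55 and 13.3 with control siRNA (1.22 and 1.69), and the cystine transporter SLC7A11, at 23.3 FPKM at PDL 15, 61.6 at PDL 55 and 25 with control siRNA (1.70 and 0.98). NFE2L2, the gene of NRF2, was not called, at 177 FPKM at PDL 15, 161 at PDL 55 and 90.4 with control siRNA (0.21), nor was haem oxygenase HMOX1, at 8.01 FPKM at PDL 15, 4.96 at PDL 55 and 5.65 with control siRNA (-0.26). SOD2, the mitochondrial superoxide dismutase, was the lower one, at 281 FPKM at PDL 15, 83.2 at PDL 55 and listed at 0 with control siRNA (-1.41). Metallothionein MT2A was at 38.3 FPKM at PDL 15, 349.5 at PDL 55 and 293 with control siRNA, so its ratio of 3.50 against the untransfected library had no counterpart against control siRNA (-0.03).

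In sugar metabolism, LDHA, the muscle-type lactate dehydrogenase chain, was at 123 FPKM at PDL 15, 328 at PDL 55 and 143 with control siRNA (1.74 and 0.91, but -0.31 against PDL 15 without transcripts of status LOWDATA), hexokinase HK1 at 56.6 FPKM at PDL 15, 115 at PDL 55 and 50.4 with control siRNA (1.35 and 0.89), and aldolase ALDOA at 111 FPKM at PDL 15, 188 at PDL 55 and 64.9 with control siRNA (1.09 and 1.23). PFKP, the platelet phosphofructokinase, was lower, at 23.1 FPKM at PDL 15, 4.56 at PDL 55 and 33.2 with control siRNA (-1.78 and -2.91). LDHB was at 299 FPKM at PDL 15, 172 at PDL 55 and 93.1 with control siRNA (-0.45 and 0.59), not called. PKM was higher against PDL 15 only, at 121 FPKM at PDL 15, 345 at PDL 55 and 344 with control siRNA (1.84 and -0.28, 0.64 with assembled transcripts). TALDO1, transaldolase, was at 33.0 FPKM at PDL 15, 78.3 at PDL 55 and 11.4 with control siRNA (1.56 and 2.40). TALDO1 was the only higher one of 17 genes of the pentose phosphate, serine and one-carbon pathways that passed, and 6 were lower, TKT of the pentose phosphate pathway among them (3 higher and 5 lower against control siRNA). PHGDH, which takes carbon from glycolysis into serine, was at 12 FPKM at PDL 15, 0.457 at PDL 55 and 4.68 with control siRNA (-2.81 and -2.25), and PSAT1, the next enzyme, at 9.44 FPKM at PDL 15, 1.42 at PDL 55 and 4.31 with control siRNA (-1.77 and -1.42). The asparagine synthetase ASNS was at 13.3 FPKM at PDL 15, 3.11 at PDL 55 and 3.46 with control siRNA (-1.46 and -0.41).

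The median of respiratory chain genes lay slightly above the median gene, with fewer calls than the 9.89% and 10.4% of all genes. Of 77 genes 67 passed, 4 of them higher and 1 lower, with a median of 0.44 against PDL 15 and 0.51 against control siRNA, where 16 were higher and 3 lower. ATP5F1D, a subunit of ATP synthase, was at 11.3 FPKM at PDL 15, 28.5 at PDL 55 and 14.7 with control siRNA (1.61), and UQCR10 of complex III at 30.5 FPKM at PDL 15, 54.5 at PDL 55 and 24.4 with control siRNA (1.16). Of 50 mitochondrial ribosome genes 3 were higher and 3 lower (6 and 6 against control siRNA). PDK2, a kinase that slows pyruvate entry into the citrate cycle, was at 10.6 FPKM at PDL 15, 29.1 at PDL 55 and 9.47 with control siRNA (1.72 and 1.24), and cytosolic aconitase ACO1, which also binds iron-responsive elements, at 22.3 FPKM at PDL 15, 55.9 at PDL 55 and 30.4 with control siRNA (1.63 and 0.57, 2.26 with assembled transcripts). Of 20 genes of cholesterol synthesis and uptake, 2 were higher and 0 lower against PDL 15, and 8 and 1 against control siRNA. In fatty acid metabolism ACSL4 was at 181 FPKM at PDL 15, 50.3 at PDL 55 and 75.6 with control siRNA (-1.49 and -0.86) and the elongase ELOVL1 at 11.4 FPKM at PDL 15, 37.8 at PDL 55 and 11.4 with control siRNA (1.98 and 1.35).

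RNA-binding proteins are of interest here because the series also holds knockdowns of 2 of them, AUF1 and HuR, which are not described here. HNRNPD, the gene of AUF1, was at 119 FPKM at PDL 15, 42.3 at PDL 55 and 61.2 with control siRNA (-1.13 and -0.81). ELAVL1, the gene of HuR, was at 16.6 FPKM at PDL 15, 12.2 at PDL 55 and 11.8 with control siRNA (-0.08 and -0.24) and was not called. Among 23 genes of hnRNP proteins that passed, 4 were lower and 0 higher, beside 10.4% and 9.89% of all genes (median -0.35 and -0.52). HNRNPA1, the best known of them, was at 159.9 FPKM at PDL 15, 46.3 at PDL 55 and 73.4 with control siRNA (-1.43 and -0.94), and HNRNPA2B1 at 333 FPKM at PDL 15, 136 at PDL 55 and 160.4 with control siRNA (-0.95, just short of 2-fold). PTBP2, the neural polypyrimidine tract binding protein, was at 22.9 FPKM at PDL 15, 6.85 at PDL 55 and 25.5 with control siRNA (-1.27 and -2.04). Splicing factors of the SR family and spliceosome had 2 higher and 2 lower of 43 (4 and 8 against control siRNA). IGF2BP2, an mRNA-binding protein, was at 159 FPKM at PDL 15, 79.8 at PDL 55 and 76.7 with control siRNA (-0.65), and the decay factor gene ZFP36L1 at 75.6 FPKM at PDL 15, 91.6 at PDL 55 and 151 with control siRNA (0.61 and -1.002).

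Ribosomal protein genes were mostly within 2-fold of the median gene. Of 72 that passed, 4 were higher and 2 lower, and 4 of these 6 had 0 FPKM at PDL 15 or PDL 55. Their median was -0.35 against PDL 15 and 0.42 against control siRNA, so its direction depended on the reference, and 14 were higher and 3 lower against control siRNA. Translation factors had 0 higher and 2 lower of 44 (10 and 2 against control siRNA). Chaperones had 7 higher and 1 lower of 35, beside 9.89% and 10.4% of all genes, with 2 of the 7 at 0 FPKM at PDL 15. The small heat shock protein gene CRYAB was at 10.6 FPKM at PDL 15, 38.1 at PDL 55 and 5.61 with control siRNA (2.10 and 2.28), HSPB7 at 2.37 FPKM at PDL 15, 8.75 at PDL 55 and 1.47 with control siRNA (1.87 and 1.70), and the HSP40 gene DNAJB4 at 16.5 FPKM at PDL 15, 32.1 at PDL 55 and 2.63 with control siRNA (1.25 and 2.90). The endoplasmic reticulum chaperone HSPA5 was at 117 FPKM at PDL 15, 74.0 at PDL 55 and 89.3 with control siRNA (-0.32), and of 52 secretory pathway genes 4 were higher and 1 lower (9 and 3 against control siRNA).

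Among p53 targets, 5 of 25 that passed were higher and 2 lower. Besides CDKN1A, RRM2B and TNFRSF10D, given above, PERP, a tetraspan protein of cell junctions, was at 44.7 FPKM at PDL 15, 319 at PDL 55 and 24.7 with control siRNA (3.15 and 3.35). Most others were within 2-fold, such as CCNG1, at 105 FPKM at PDL 15, 92.7 at PDL 55 and 62.2 with control siRNA (0.16), and GADD45A, at 25.5 FPKM at PDL 15, 36.4 at PDL 55 and 18.9 with control siRNA (0.84). Of 9 NF-kB genes that passed, 1 was higher and 4 were lower, beside 9.89% and 10.4% of all genes, and 0 and 2 against control siRNA. The list median of -0.79 became 0.81 with a minimum of 20 FPKM. NFKB1, the p105 precursor, was at 28.8 FPKM at PDL 15, 9.13 at PDL 55 and 17.8 with control siRNA (-1.22 and -1.18, -0.47 with assembled transcripts), and BCL3 at 25.4 FPKM at PDL 15, 5.36 at PDL 55 and 15.2 with control siRNA (-1.72 and -1.63). RELA, the p65 subunit, was at 47.0 FPKM at PDL 15, 66.7 at PDL 55 and 48.2 with control siRNA (0.84). Of MAP kinase feedback genes, DUSP6, an ERK phosphatase, was at 5.57 FPKM at PDL 15, 22.8 at PDL 55 and 1.87 with control siRNA (2.19 and 2.77), and DUSP10 at 19.6 FPKM at PDL 15, 49.2 at PDL 55 and 18.8 with control siRNA (1.62 and 1.05). The immediate early gene EGR1 was at 26.0 FPKM at PDL 15, 3.34 at PDL 55 and 40.9 with control siRNA (-2.30 and -3.56), and the AP-1 member FOSL2 at 22.2 FPKM at PDL 15, 1.82 at PDL 55 and 7.07 with control siRNA (-2.70 and -1.80, -1.93 with assembled transcripts). Interferon and antigen presentation genes had 2 higher and 2 lower of 18 (6 and 1 against control siRNA), with IFI6 at 1.87 FPKM at PDL 15, 13.1 at PDL 55 and 4.48 with control siRNA (2.64 and 1.08). Of apoptosis genes, the BH3-only gene BCL2L11 was lower at 13.5 FPKM at PDL 15, 2.10 at PDL 55 and 5.76 with control siRNA (-1.89 and -1.41).

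Transcription factors that mark mesenchymal and lung fibroblast identity leaned lower. Of 70 genes 36 passed, with 18 lower and 2 higher, beside 10.4% and 9.89% of all genes, and both of the higher ones were listed at 0 at PDL 15. The median was -0.98 against PDL 15 and -1.26 against control siRNA, where 22 were lower. Of the 18, 7 were under 5 FPKM at PDL 55. Of the 33 under the minimum, 18 lay below the median gene and 12 above. PRRX1, a homeobox factor of limb and fibroblast mesenchyme, was at 144 FPKM at PDL 15, 19.6 at PDL 55 and 65.1 with control siRNA (-2.47 and -1.97). The TALE homeobox factor MEIS2, at 41.7 FPKM at PDL 15, 5.56 at PDL 55 and 18.7 with control siRNA (-2.36 and -1.87), was lower, as were PBX3 and MEIS1 (-1.74 and -1.20; MEIS1 -2.57 with assembled transcripts). ZEB2 was at 52.4 FPKM at PDL 15, 5.88 at PDL 55 and 39.7 with control siRNA (-2.62 and -2.85, but -1.07 with assembled transcripts and 0.30 without transcripts of status LOWDATA), TCF4 at 46.7 FPKM at PDL 15, 8.96 at PDL 55 and 25.3 with control siRNA (-1.92 and -1.69), and the forkhead factor FOXP2 at 112 FPKM at PDL 15, 17.8 at PDL 55 and 69.2 with control siRNA (-2.25 and -2.19). All of these lay below both PDL 15 libraries.

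TWIST1, which drives mesenchymal gene expression, was at 29.2 FPKM at PDL 15, 7.39 at PDL 55 and 12.9 with control siRNA (-1.51 and -1.02). TCF21, RUNX2, EBF1, NFIA and TBX3 were also lower (-1.94 to -1.08). FOXF1, a factor of lung mesenchyme, was at 18.3 FPKM at PDL 15, 6.63 at PDL 55 and 20.9 with control siRNA (-1.002, but 1.08 with assembled transcripts). TBX4, a lung mesenchyme factor under the minimum, was at 5.77 FPKM at PDL 15, 0.0439 at PDL 55 and listed at 0 with control siRNA. Not all factors shared the pattern: SNAI2 was at 35.8 FPKM at PDL 15, 31.3 at PDL 55 and 18.5 with control siRNA (0.15), RUNX1 at 88.5 FPKM at PDL 15, 86.6 at PDL 55 and 43.8 with control siRNA (0.31), and ZEB1 at 393 FPKM at PDL 15, 188 at PDL 55 and 228 with control siRNA (-0.72, 0.08 with assembled transcripts). Of 33 HOX genes only 2 passed. In Hedgehog signalling GLI3 was at 48.0 FPKM at PDL 15, 16.6 at PDL 55 and 28.7 with control siRNA (-1.13 and -1.03). Among targets and partners of YAP, TEAD2 was at 11.0 FPKM at PDL 15, 3.37 at PDL 55 and 7.40 with control siRNA (-1.12 and -1.23), while CTGF, a standard target, was at 109 FPKM at PDL 15, 104 at PDL 55 and 55.5 with control siRNA (0.27). POT1, which binds the single strand at telomere ends, was at 9.87 FPKM at PDL 15, 1.34 at PDL 55 and 4.17 with control siRNA (-1.88 and -1.43, -2.49 with assembled transcripts), and of 11 telomere genes it was the only lower one.

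Of 20 long noncoding RNAs on the list that passed, 1 was higher and 3 were lower. CARMN, a smooth muscle and mesenchymal noncoding RNA, was at 41.6 FPKM at PDL 15, 1.20 at PDL 55 and 17.7 with control siRNA (-3.94 and -3.37). PURPL, a p53-regulated noncoding RNA, was at 1.15 FPKM at PDL 15, 16.3 at PDL 55 and 3.29 with control siRNA (3.35 and 1.73). MALAT1 was at 1391 FPKM at PDL 15, 872 at PDL 55 and 256 with control siRNA (-0.33). NEAT1, the higher one, was listed at 0 at PDL 15, where all of its FPKM lay in assembled transcripts. With those added the ratio of NEAT1 was 0.15.

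The genes with the largest ratios were taken by rank. Among the 40 highest and 40 lowest of the called genes whose intervals did not overlap and whose direction held at 1.5-fold against control siRNA, 38 and 33 had 0 FPKM at PDL 15 or PDL 55, among them RPS19 and COX4I1, which every cell uses, at PDL 15 and RPL8 at PDL 55. The order of those genes is set by their level in the other library. After the values were seen, the ranking was therefore repeated for called genes above 0 in all 3 libraries with deposited intervals that did not overlap, whose direction held at 1.5-fold against control siRNA and at 2-fold with assembled transcripts added. This left 300 higher and 392 lower genes. Behind CCND2, IGFBP7, WNT16 and PSG9, among others, in the higher direction came genes on none of the lists. ADAMTS19, a metalloprotease, was at 0.978 FPKM at PDL 15, 16 at PDL 55 and 2.53 with control siRNA (3.44, 4.57 with assembled transcripts), and the carboxypeptidase CPA4 at 7.90 FPKM at PDL 15, 62.7 at PDL 55 and 15.4 with control siRNA (3.18, 2.58 with assembled transcripts). NABP1, a single-stranded DNA binding protein, was at 26.5 FPKM at PDL 15, 186 at PDL 55 and 35.9 with control siRNA (3.10 and 2.06). DPP4, a surface dipeptidase, was at 14.2 FPKM at PDL 15, 96.3 at PDL 55 and 11.7 with control siRNA (3.02 and 2.65). The aldose reductase AKR1B1 was at 38.6 FPKM at PDL 15, 210.0 at PDL 55 and 28.9 with control siRNA (2.75 and 2.54), and the prion protein gene PRNP at 24.5 FPKM at PDL 15, 131 at PDL 55 and 16.1 with control siRNA (2.70 and 2.66). TXNIP, which inhibits thioredoxin and glucose uptake, was at 7.46 FPKM at PDL 15, 34.7 at PDL 55 and 3.86 with control siRNA (2.42 and 2.59), and the mineralocorticoid receptor NR3C2 at 4.01 FPKM at PDL 15, 26.3 at PDL 55 and 13.0 with control siRNA (2.79 and 0.68).

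In the lower direction the ranking began with TOX, an HMG-box factor best known from T cells, at 80.1 FPKM at PDL 15, 0.627 at PDL 55 and 26.8 with control siRNA (-5.30 and -4.38, -3.81 with assembled transcripts), and DPF3, a chromatin remodelling subunit, at 77.3 FPKM at PDL 15, 0.782 at PDL 55 and 3.6 with control siRNA (-5.12 and -1.65, -1.92 with assembled transcripts). Several transcriptional regulators followed. BACH2 was at 69.6 FPKM at PDL 15, 3.11 at PDL 55 and 12.8 with control siRNA (-3.76 and -2.03), CREB5 at 58.0 FPKM at PDL 15, 2.79 at PDL 55 and 20.01 with control siRNA (-3.62 and -2.76), and RUNX1T1 at 87.2 FPKM at PDL 15, 5.04 at PDL 55 and 32.1 with control siRNA (-3.53 and -2.74). LDB2, a LIM-domain binding protein, was among the more abundant of them at 246 FPKM at PDL 15, 16.9 at PDL 55 and 133 with control siRNA (-3.45 and -3.19). In each of these the PDL 55 library was the lowest of the 3. The imprinted gene PEG10 was at 78.4 FPKM at PDL 15, 6.15 at PDL 55 and 56.7 with control siRNA (-3.13 and -3.30), SGCD, delta-sarcoglycan, at 57.6 FPKM at PDL 15, 4.63 at PDL 55 and 19.5 with control siRNA (-3.04 and -2.15), and the alcohol dehydrogenase ADH1B at 13.7 FPKM at PDL 15, 0.125 at PDL 55 and 1.59 with control siRNA (-3.37 and -1.49). CDKN3, a phosphatase of cyclin-dependent kinases, was at 12.9 FPKM at PDL 15, 0.374 at PDL 55 and 22.9 with control siRNA (-3.000 and -4.40), and CDCA2, a mitotic phosphatase partner, at 26.7 FPKM at PDL 15, 1.26 at PDL 55 and 36.7 with control siRNA (-3.28 and -4.34). Both act in the cell cycle, although neither was on a mitosis list.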

How the data were processed

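Total RNA of WI-38 cells was amplified with NuGEN's single-primer method and sequenced on an Illumina Genome Analyzer II, per the labels' protocols. Reads were handled with TopHat2 2.0.6, Cufflinks 2.0.2 and Cuffdiff on hg19, per the submitters' processing notes, which give no role or order. Each deposited table lists transcripts with FPKM and its lower and upper 95% bounds and a status, and the authors' coverage values, a signal of reads over a transcript, per the file headers. No source used here gives read depth or strand, so no counting error could be computed and the deposited bounds are the only error.

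FPKM and its bounds were each summed over the annotated transcripts of a gene. Of 160476 annotated transcripts 97.4% were assigned to a gene, by the identifier in the tables, GENCODE release 29 or overlap with a single gene. Assembled transcripts without an annotated name were used only as an alternative. Genes needed a mean of 5 FPKM and no transcript of status FAIL. Log2 ratios used a pseudocount of 1 FPKM, which understates the change of low genes, and were centred on the median gene. With 1 library a group no test was run. The steps were tested on simulated data, in python 3.11.15 with numpy 2.4.6, pandas 2.3.3 and matplotlib 3.10.9.

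The 77 gene lists and the genes described were chosen with earlier results of these data known. Named were every gene of the senescence list and, from each other list, up to 8 called genes a direction that kept it against control siRNA, up to 5 that did not, and up to 3 abundant uncalled ones, plus the 40 highest and 40 lowest ratios among called genes with intervals that did not overlap and the same direction, at 1.5-fold, against control siRNA. Some named genes are a selection from these. Genes under the minimum, the ranking without zeros, the clustered histone list and TFEB were added after the values were seen. Promoter windows are RefSeq's (GRCh38.p14), a later build than the deposited coordinates. The AUF1 and HuR knockdown libraries were not used here. Some genes on the lists are not reported here.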

Additional observations from a re-analysis of the deposited data

How the results depend on the processing

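No paired analysis was possible because each group is 1 library. The 2-fold counts were recomputed under 12 other settings, of which leaving out transcripts under 300 nt and leaving out genes at 0 were chosen after seeing the data. The 727 higher genes became 301 with a mean of at least 20 FPKM, 1250 with control siRNA as the reference and 451 without centring. The 764 lower genes became 2271 without a filter, 253 at 20 FPKM and 1314 without centring. The 24 lower mitosis genes became 59 without a filter and 2 at 20 FPKM, since few mitosis genes are that abundant. At 20 FPKM, 5 collagen genes and 8 mesenchymal factors were lower and 7 lysosomal genes higher. With control siRNA as the reference 7 proton pump genes were higher, and with assembled transcripts added 4 integrins.

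Of the ratios of 269 named genes, 2 listed at 0 were not recomputed and 251 kept their sign under every setting that gave a value or were not called. With control siRNA as the reference the sign reversed for ATP6V0C (-0.22), DCN (0.25), DNMT3A (0.80), HIST1H4H (-0.59), HIST2H2AA3 (-0.017), MT2A (-0.033), PAICS (0.053), PKM (-0.28) and SOD2 (6.11, listed at 0 with control siRNA). With assembled transcripts added it reversed for FOXF1 (1.08), PSMA7 (0.26) and PSMD12 (-1.15). Without transcripts of status LOWDATA it reversed for COL1A1 (6.34), LDHA (-0.31) and ZEB2 (0.30), and with the top transcript alone for ATIC (-0.41). Of 32 list medians, those that reversed were HOX genes (-0.059 without a filter and -0.81 without genes at 0), NF-kB genes (0.81 at 20 FPKM), high mobility group genes (0.22 at 20 FPKM), deacetylases (0.007 with the top transcript alone), intermediate filaments (-1.04 against control siRNA), metallothioneins (-0.31 against control siRNA), proteoglycans (0.69 against control siRNA) and the senescence list (0.73 at 20 FPKM and 0.049 against control siRNA). Apart from the fewer genes tested at 20 FPKM, the cause was not tested.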
